A study of Mus musculus with 9 samples.

Results

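The hypoxia-inducible factor (HIF) pathway was followed in RAW264.7 macrophages through 10 genes, chosen by their symbols from the 55401 genes of the expression table. They are Hif1a and Epas1, which encode the oxygen-regulated HIF alpha subunits, Vhl, Egln1, Egln2, Egln3 and Hif1an, which restrain these subunits, and Vegfa, Bnip3 and Ankrd37, which are known HIF target genes. All 10 symbols were found, each with 1 identifier. RAW264.7 is a wild-type mouse macrophage line that was derived from a tumour induced by Abelson murine leukemia virus in a male mouse. The cells were treated with the solvent dimethyl sulfoxide (DMSO group), with DMSO and lipopolysaccharide (LPS group), or with LPS and skatole (LPS + Ska group). LPS is a bacterial wall component that drives macrophages to the inflammatory M1 state, and skatole is an indole compound that the study tested as a modulator of this state. There was no group with skatole alone, so every value with skatole is from cells that also received LPS. Each group had 3 RNA-sequencing samples, numbered 5, 6 and 7, of a single cell line, and nothing in the labels says that they were separate cultures. The p-values therefore measure the spread between these samples, which may be technical. The labels give a treatment of 24 h, as do the results and a figure legend of the study, whereas its methods give a longer one. The skatole concentration of this experiment was not given in the sources used here.

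In cells with enough oxygen, prolyl hydroxylases of the EGLN family mark the HIF alpha subunits, and the VHL protein, which is the recognition subunit of a ubiquitin ligase, binds the marked subunits and sends them for degradation. HIF1AN, an asparaginyl hydroxylase, blocks their contact with coactivators. When oxygen is low the alpha subunits persist, pair with ARNT and bind the hypoxia response element in genes of glucose use, blood vessel growth and survival. In macrophages, LPS is known to raise Hif1a transcription in normal oxygen as well. Much of the regulation of HIF acts on protein, which RNA-sequencing does not measure.

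The hypoxia response element has the core ACGTG or GCGTG, and this core was searched on both strands of the RefSeq promoter windows (build GRCm38.p6, 250 bases before to 50 bases after a start site). Of all 32851 windows, 14380 (43.8%) held at least 1 core. Of the 11 windows of the pathway genes, 8 held one, and these belonged to 7 of the 9 genes in the table. Vhl and Hif1an had no match in their windows, and Epas1 was not in the table. Exon-free stretches before a RefSeq start site follow for the genes that were called changed in these data, since these are the promoters whose genes moved. Those of Hif1a and Ankrd37 lie inside the annotated spans of their genes (73901375 to 73947530 and 45996902 to 46005707). Capitals mark the cores, which read CACGT or CACGC where the core is on the other strand, and neighbouring cores run together.
Hif1a, chr12:73907617-73907866, + strand: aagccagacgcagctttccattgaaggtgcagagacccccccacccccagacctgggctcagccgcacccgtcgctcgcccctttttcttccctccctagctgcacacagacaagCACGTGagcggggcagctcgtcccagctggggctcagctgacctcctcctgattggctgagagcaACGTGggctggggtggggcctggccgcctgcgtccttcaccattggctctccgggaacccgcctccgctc
Egln1, chr8:124949325-124949504, - strand: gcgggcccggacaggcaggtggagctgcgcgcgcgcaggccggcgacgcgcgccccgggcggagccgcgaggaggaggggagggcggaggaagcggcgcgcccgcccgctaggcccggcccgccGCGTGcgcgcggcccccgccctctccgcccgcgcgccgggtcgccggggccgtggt
Egln2, chr7:27166803-27167052, - strand: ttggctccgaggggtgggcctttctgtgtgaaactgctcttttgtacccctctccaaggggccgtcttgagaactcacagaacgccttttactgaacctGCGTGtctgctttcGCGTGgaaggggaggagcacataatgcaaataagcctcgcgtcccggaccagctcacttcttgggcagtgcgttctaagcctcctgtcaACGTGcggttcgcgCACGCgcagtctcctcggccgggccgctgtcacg
Vegfa, chr17:46032378-46032627, - strand: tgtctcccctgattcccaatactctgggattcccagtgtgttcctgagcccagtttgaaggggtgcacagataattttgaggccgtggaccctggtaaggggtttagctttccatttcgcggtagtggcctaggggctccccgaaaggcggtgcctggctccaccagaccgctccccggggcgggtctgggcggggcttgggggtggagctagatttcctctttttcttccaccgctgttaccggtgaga
Ankrd37, chr8:45999868-46000100, - strand: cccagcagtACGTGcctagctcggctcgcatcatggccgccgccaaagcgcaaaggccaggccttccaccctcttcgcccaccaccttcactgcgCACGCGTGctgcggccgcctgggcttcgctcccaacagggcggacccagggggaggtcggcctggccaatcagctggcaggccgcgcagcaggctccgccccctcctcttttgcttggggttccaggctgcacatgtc
The 300-base windows of these start sites held 3 cores for Hif1a, 2 for Egln1, 6 for Egln2, 0 for Vegfa and 4 for Ankrd37, and some lie outside the stretches shown. Overlapping matches were counted separately in all windows. The CACGTG of Hif1a, read on both strands, thus counts as 2 cores, as does the CACGCGTG of Ankrd37. Windows with at least 3 cores made up 8.93% of all windows. A further start site of Vegfa had 2 cores in its window, and Bnip3 had 5. A core is a match of letters, and whether HIF binds there was not measured.

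Expression was given in TPM, a transcript share scaled to a fixed total per library and corrected for length. The values are per transcript length, so levels can be set side by side between genes, but only roughly, as the annotation behind them was not given. TPM keep no sequencing depth, and the depth of the samples is unknown. The columns of both LPS-treated groups were tied, with replicate 5 midway between replicates 6 and 7 in all 17950 genes above 0 in both with LPS, and in all 17658 such genes with LPS + Ska. No more than 2 values per gene are thus independent in each of them, and the SD of 3 columns does not stand for 3 independent samples. Results with the 2 values recovered from the columns are given where they change a call. The cells carried macrophage markers, with 8 of 8 past the filter described next, and 0 of 11 markers of lymphoid, epithelial, endothelial, fibroblast and red blood cells passed it. Genes with a mean of at least 1 TPM over the 9 columns were tested with limma on log2(TPM + 1), and a call needed a fold change of more than 1.5 or less than 0.67 together with an adjusted p (Benjamini-Hochberg) under 0.05. Of the pathway genes 8 were tested, and Epas1 and Egln3 fell under the filter. All fold changes below are on the log2(TPM + 1) scale, which understates the change of low genes.

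Hif1a was the most abundant pathway gene in LPS-treated macrophages, and LPS raised it. Its level was 71.3, 81.6 and 86.9 TPM in DMSO replicates 5, 6 and 7, and 144.7, 144.1 and 145.2 TPM in those of LPS. With LPS + Ska it was 155.9, 173.8 and 138.0 TPM. Every LPS-treated column, with or without skatole, was above every DMSO column, whereas the columns of LPS and LPS + Ska overlapped. The recovered values, 144.4 and 144.9 TPM in LPS and 164.9 and 147.0 TPM in LPS + Ska, did not overlap. Hif1a was higher in LPS than in DMSO by 0.85 on the log2 scale (SE 0.093, limma adjusted p = 5e-05), and in LPS + Ska than in DMSO by 0.95 (SE 0.093, adjusted p = 2e-05). Its exons share 330 bases (5.6%) with the antisense gene Gm15283 and 148 bases (2.5%) with Gm49321, and since it was not stated whether strand was used, such reads could not be told apart. Gm15283 had at most 1.18 TPM in a column and Gm49321 at most 0.637 TPM. Hif1a lies on chromosome 12 (GRCm38, 73901375 to 73947530, + strand).

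The alpha subunit HIF2, encoded by Epas1 on chromosome 17 (86753700 to 86833410), was near 0 in all groups. Its columns lay between 0.0097 and 0.182 TPM in DMSO, between 0.0992 and 0.140 TPM in LPS and between 0.0090 and 0.0441 TPM in LPS + Ska. At such levels no change was tested. Between these genes, nearly all RNA was thus from Hif1a.

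**Figure D1:**
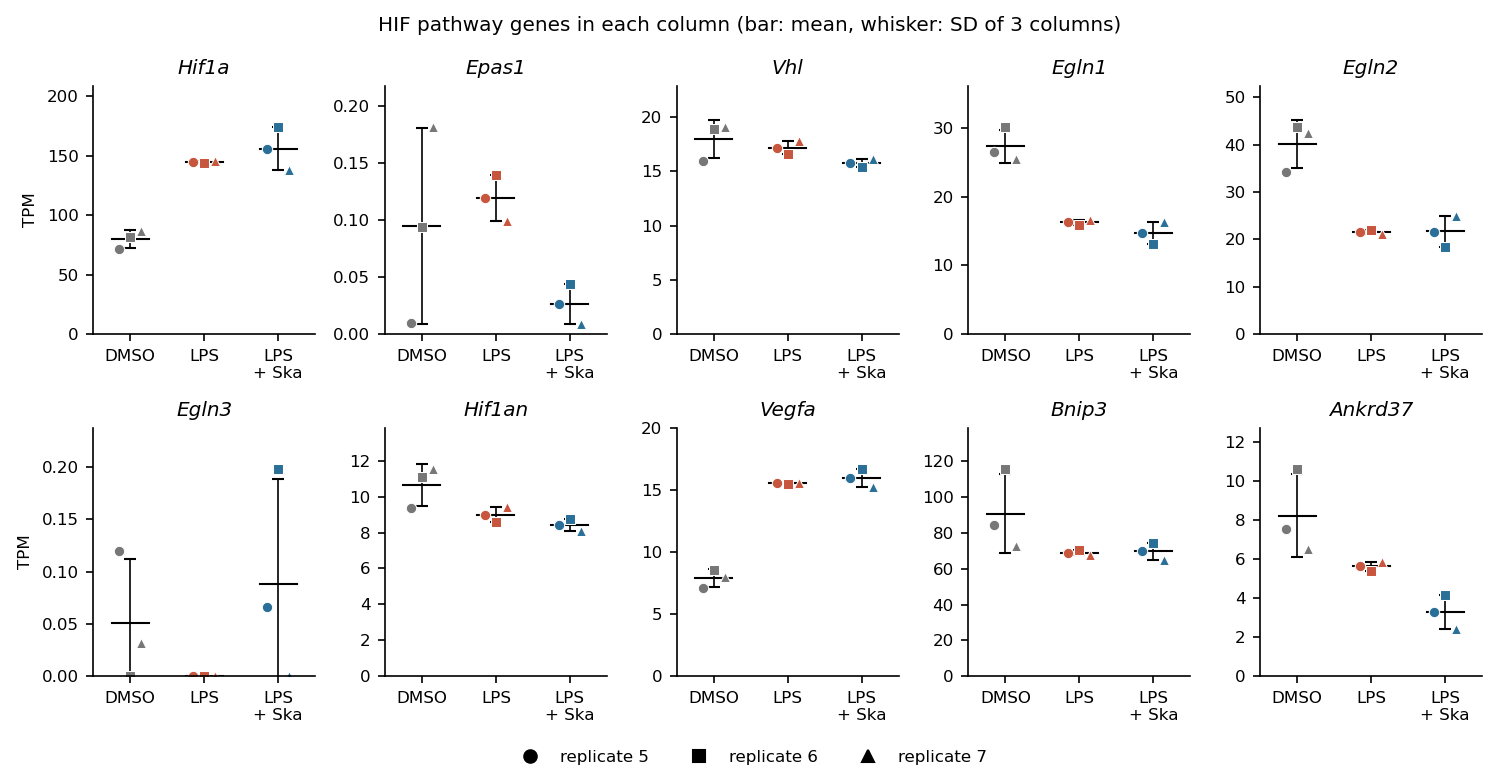
TPM of the 10 HIF pathway genes on linear axes that start at 0 and differ between panels. Points are the columns of DMSO, LPS and LPS + Ska, with a marker shape for each replicate number, horizontal bars are means and whiskers the SD of 3 columns. Hif1a and Vegfa sit higher and Egln1 and Egln2 lower in every LPS-treated column than in DMSO, and Ankrd37 is lowest in LPS + Ska.

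Of the restraining enzymes, the prolyl hydroxylase genes Egln1 and Egln2 fell with LPS. Egln1, which encodes PHD2, the main oxygen sensor for HIF, had 26.5, 30.2 and 25.5 TPM in DMSO replicates 5, 6 and 7, 16.3, 15.9 and 16.7 TPM in LPS, and 14.7, 13.2 and 16.3 TPM in LPS + Ska. Egln2, which encodes PHD1, had 34.3, 43.7 and 42.5 TPM in DMSO, 21.6, 22.0 and 21.2 TPM in LPS, and 21.7, 18.3 and 25.0 TPM in LPS + Ska. For both genes the DMSO columns lay above all other columns and the LPS and LPS + Ska columns overlapped. The recovered values of Egln1, 16.1 and 16.5 TPM in LPS and 14.0 and 15.5 TPM in LPS + Ska, did not overlap. Those of Egln2 did. LPS compared with DMSO gave a log2 change of -0.71 for Egln1 (SE 0.095, adjusted p = 0.00017) and of -0.86 for Egln2 (SE 0.12, adjusted p = 0.00025). Compared with DMSO, LPS + Ska gave -0.85 for Egln1 (SE 0.095, adjusted p = 4.7e-05) and -0.86 for Egln2 (SE 0.12, adjusted p = 0.00021). Egln1 lies on chromosome 8 (124908587 to 124949324, - strand) and Egln2 on chromosome 7 (27158658 to 27166802, - strand).

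Egln3, the hydroxylase gene that hypoxia induces strongly in many cells, was at or near 0 TPM, with a highest column of 0.198 TPM (LPS + Ska replicate 6), and was listed at 0 in all columns of LPS. Vhl and Hif1an differed little between groups. Vhl had 15.9, 18.9 and 19.1 TPM in DMSO, 17.2, 16.6 and 17.8 TPM in LPS, and 15.8, 15.4 and 16.2 TPM in LPS + Ska, with adjusted p from 0.11 to 0.58 over the 3 comparisons. Hif1an had 9.36, 11.1 and 11.5 TPM in DMSO, 8.99, 8.57 and 9.41 TPM in LPS, and 8.44, 8.77 and 8.11 TPM in LPS + Ska. Hif1an was 0.30 lower on the log2 scale in LPS + Ska than in DMSO (95% interval -0.52 to -0.080, adjusted p = 0.023, and 0.059 with recovered values), which is inside the fold change limits. Vhl lies on chromosome 6 (113623959 to 113631633), Hif1an on chromosome 19 (44562850 to 44576274) and Egln3 on chromosome 12 (54178981 to 54203860).

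The 3 target genes moved in different ways. Vegfa, which encodes the vascular endothelial growth factor that drives blood vessel growth, had 7.10, 8.57 and 8.02 TPM in DMSO, 15.6, 15.5 and 15.6 TPM in LPS, and 16.0, 16.7 and 15.3 TPM in LPS + Ska. All columns with LPS were above all DMSO columns. The log2 change of Vegfa was 0.90 in LPS against DMSO (SE 0.086, adjusted p = 2.2e-05) and 0.94 in LPS + Ska against DMSO (SE 0.086, adjusted p = 1.4e-05). Vegfa lies on chromosome 17 (46016993 to 46032369, - strand).

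Bnip3, a mitochondrial protein of mitophagy and cell death, was the highest pathway gene in DMSO by its mean, although its columns overlapped those of Hif1a. It had 84.3, 115.6 and 72.7 TPM in DMSO replicates 5, 6 and 7, 68.9, 70.2 and 67.5 TPM in LPS, and 69.8, 74.4 and 65.1 TPM in LPS + Ska. The DMSO columns ranged widely, and the lowest of them stood just above LPS. In LPS compared with DMSO, its log2 change of -0.37 (SE 0.14, adjusted p = 0.046) was inside the fold change limits, and its adjusted p was 0.088 with recovered values. Bnip3 lies on chromosome 7 (138890836 to 138909519, - strand), and 504 of its exonic bases (22.3%) are shared with the antisense gene Gm45507, which was listed at 0 in every column.

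Ankrd37, an ankyrin repeat protein gene of which hypoxia is a known inducer, was the pathway gene that differed between LPS + Ska and LPS. It had 7.52, 10.6 and 6.49 TPM in DMSO replicates 5, 6 and 7, 5.61, 5.39 and 5.83 TPM in LPS, and 3.28, 4.15 and 2.41 TPM in LPS + Ska. Its columns did not overlap between any of the groups. Ankrd37 was lower in LPS + Ska than in LPS by a log2 change of -0.65 (SE 0.19, 95% interval -1.07 to -0.22, adjusted p = 0.031). With the recovered values, 5.50 and 5.72 TPM in LPS and 3.72 and 2.85 TPM in LPS + Ska, the adjusted p was 0.078 and the call was lost. The call was also lost without a filter on low values, with median-ratio scaling, without any 1 LPS column, and without LPS + Ska replicate 5 or 7. As the columns of these groups are tied, leaving 1 out takes away no independent sample and does not test dependence on a sample. Over all 19 alternatives the change stayed between -0.79 and -0.49, with adjusted p from 0.014 to 0.094. Against DMSO, Ankrd37 was lower in LPS + Ska by a log2 change of -1.10 (SE 0.19, adjusted p = 0.00073), and its change in LPS was -0.45 (adjusted p = 0.063). Ankrd37 lies on chromosome 8 (45996902 to 46005707, - strand). It shares 349 exonic bases (22.7%) with Lrp2bp and 57 (3.7%) with Ufsp2, both on the opposite strand. Lrp2bp had group means of 0.788, 0.516 and 0.344 TPM in DMSO, LPS and LPS + Ska, and Ufsp2 had 100.3, 99.8 and 97.6 TPM. The part of these overlaps in the level of Ankrd37 was not tested.

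In LPS compared with DMSO, 4 of the 8 tested pathway genes were called, beside 32.7% of all 12819 genes tested. Of these, 2 were higher (Hif1a and Vegfa, background 12.7%) and 2 lower (Egln1 and Egln2, background 20.0%). Skatole added to LPS gave 1 call of 8 (Ankrd37, lower) against LPS alone, beside a background of 9.49% in either direction, 3.35% higher and 6.14% lower. Between LPS + Ska and DMSO, 5 of 8 were called, beside 36.7% of all genes, with the same 2 higher (background 11.4%) and Egln1, Egln2 and Ankrd37 lower (background 25.3%). The 4 genes that LPS moved were near their LPS level with skatole. The 95% interval of the log2 change between LPS + Ska and LPS ran from -0.11 to 0.31 for Hif1a, from -0.16 to 0.23 for Vegfa, from -0.35 to 0.074 for Egln1 and from -0.28 to 0.27 for Egln2. It ran from -0.31 to 0.077 for Vhl, from -0.30 to 0.14 for Hif1an and from -0.30 to 0.33 for Bnip3. These 7 intervals lay inside the fold change limits of -0.58 and 0.585, although the LPS and LPS + Ska columns of Vhl did not overlap. The intervals come from the fit to all 9 columns, with the tied columns included. Their width thus does not rest on 3 independent samples in each LPS-treated group. The recovered values of LPS and LPS + Ska overlapped for Egln2 and Bnip3, and did not for Hif1a, Vegfa, Egln1, Vhl and Hif1an. For the genes without overlap, limma on recovered values gave an adjusted p from 0.42 (Egln1) to 0.86 (Vegfa). The share of all genes without such overlap was not counted, so a lack of overlap between 2 values a group shows no change by itself. The median log2 change of the 8 genes was -0.29, -0.042 and -0.33 in the 3 comparisons, beside -0.067, -0.096 and -0.18 over all genes tested. With median-ratio scaling the medians of the 8 genes were -0.21, 0.050 and -0.15, beside 0.0071, -0.0046 and -0.013.

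**Figure D2:**
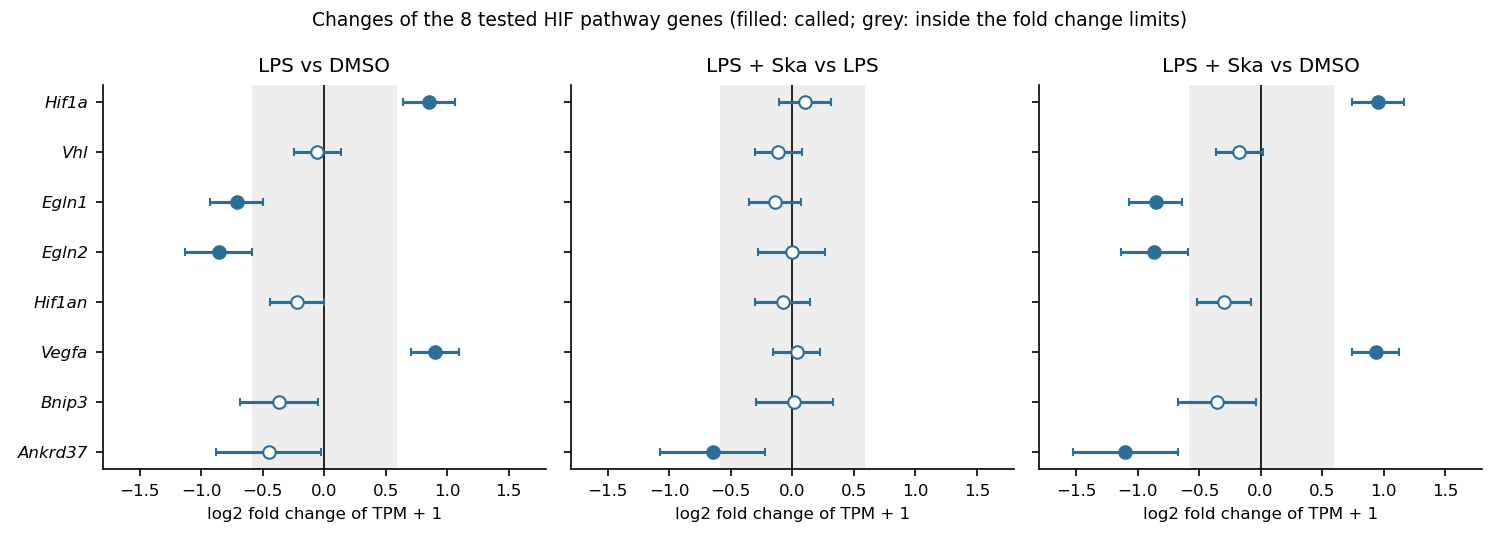
Log2 fold change of TPM + 1 of the 8 tested pathway genes in the 3 comparisons, with 95% intervals from limma. Filled points were called, open points were not, and the grey band covers changes inside the fold change limits. In LPS + Ska compared with LPS, 7 of 8 intervals lie inside the band, and that of Ankrd37 runs from -1.07 to -0.22.

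Within a group, the order of levels was set by a few large steps. In DMSO the means ran from Bnip3 (90.9 ± 22.2 TPM, SD, n = 3 columns) and Hif1a (79.9 ± 7.93) over Egln2, Egln1, Vhl, Hif1an and Ankrd37 to Vegfa (7.90 ± 0.741), with Epas1 and Egln3 near 0. Of these neighbours, Bnip3 and Hif1a overlapped, as did Hif1an and Ankrd37, Ankrd37 and Vegfa, and Epas1 and Egln3. With LPS, Hif1a came first (144.7 ± 0.566 TPM), followed by Bnip3 (68.9 ± 1.34) and Egln2 (21.6 ± 0.381), and Vegfa rose past Hif1an and Ankrd37. Vhl and Egln1 overlapped there. With LPS + Ska the first 3 genes stood in the same order, and Vegfa overlapped Vhl, which overlapped Egln1, at means between 14.7 and 16.0 TPM. Ankrd37 was the lowest of the 8 tested genes in LPS and in LPS + Ska.

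Of the partners of HIF and the parts of its degradation complex, 13 genes were listed and 10 were tested. Of these, 4 were called higher and 0 lower in LPS compared with DMSO, beside 12.7% and 20.0% of all genes. At an unadjusted limma p below 0.05 the counts were also 4 and 0, beside 28.1% and 36.3% of all genes. Eloc, an adaptor of the VHL ubiquitin ligase, rose from a mean of 60.3 to 133.5 TPM (log2 change 1.14, adjusted p = 8.4e-07), and Cul2, the scaffold of the same ligase, from 43.9 to 76.5 TPM (0.79, adjusted p = 0.00046). Siah1a, a ubiquitin ligase that targets prolyl hydroxylases, rose from 12.8 to 24.3 TPM (0.88, adjusted p = 4.6e-05). The fourth was Cited2, a transcriptional coregulator that competes with HIF for coactivators, named after its value was seen, with 589.0 TPM in DMSO and 915.4 TPM in LPS (0.64, adjusted p = 4.9e-06). Arnt, the partner of the alpha subunits and also of the aryl hydrocarbon receptor, had group means of 35.9, 34.4 and 31.8 TPM and was called in no comparison. Between LPS + Ska and LPS, limma called 0 of these 10 genes, beside 9.49% of all genes. Without the fold change limits, 4 had an adjusted p below 0.05 and were lower, beside 19.7% of all genes lower and 8.89% higher by this rule. They were Ep300 (-0.52, adjusted p = 0.0068) and Crebbp (-0.36, adjusted p = 0.045), which encode coactivators of HIF, with Siah2 (-0.28, adjusted p = 0.014) and Cited2 (-0.16, adjusted p = 0.033), and were named after their values were seen. On recovered values limma gave an adjusted p of 0.02 for Ep300, 0.087 for Crebbp, 0.061 for Siah2 and 0.1 for Cited2. With median-ratio scaling 1 was lower and 1 higher at an adjusted p below 0.05, beside 1676 lower and 1836 higher of all 12819 genes. At an unadjusted p below 0.05, 4 were lower and 1 higher, beside 27.8% and 12.7% of all genes.

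Among the HIF target genes of glucose uptake and glycolysis, calls with LPS were downwards, unlike those of Hif1a and Vegfa. All 17 listed genes were tested, and 0 were called higher and 7 lower in LPS compared with DMSO, beside 12.7% and 20.0% of all genes. Their median log2 change was -0.46, beside -0.067 over all genes. Aldoc, a fructose-bisphosphate aldolase, had 46.5, 70.5 and 52.0 TPM in DMSO and 14.2, 11.8 and 16.6 TPM in LPS (log2 change -1.91, adjusted p = 9e-06). Pfkl, a phosphofructokinase subunit, fell from a mean of 91.0 to 39.2 TPM (-1.20, adjusted p = 8.4e-06), and Pfkfb4, which makes and breaks down the activator of phosphofructokinase, from 13.6 to 6.94 TPM (-0.88, adjusted p = 0.00015). With median-ratio scaling 5 were called lower and 0 higher. At an unadjusted p below 0.05 limma gave 4 of the 17 as higher and 12 as lower, beside 28.1% and 36.3% of all genes. Between LPS + Ska and DMSO, limma called 9 of the 17 lower and 0 higher, beside 25.3% and 11.4% of all genes, and with median-ratio scaling 6 were lower. At an unadjusted p below 0.05, 1 was higher and 14 lower there, beside 24.2% and 42.7% of all genes. Skatole added to LPS gave 0 calls by limma among them, beside 9.49% of all genes, with a median log2 change of -0.19 (-0.092 with median-ratio scaling), beside -0.096 (-0.0046) over all genes. By adjusted p without the fold change limits, 7 were lower and 0 higher, and at an unadjusted p the counts were also 7 and 0. The background was 19.7% lower and 8.89% higher by adjusted p, and 27.8% and 12.7% by unadjusted p. These 7 genes, named after their values were seen, were Eno1 (-0.35, adjusted p = 0.00092), Gpi1, Hk2, Pgam1, Pfkp, Pfkfb4 (-0.39, adjusted p = 0.031) and Pdk1, with adjusted p from 0.00092 to 0.032. On recovered values the limma adjusted p was 0.099 for Pfkfb4 and 0.088 for Pdk1, and from 0.0078 to 0.047 for the others. With median-ratio scaling 4 were lower and 0 higher by adjusted p alone, beside 1676 lower and 1836 higher of all 12819 genes.

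Of 18 other HIF target genes 14 were tested, and 3 were called higher and 2 lower with LPS. These 5 of 14 stand beside 32.7% of all genes called, with 12.7% higher and 20.0% lower. Ero1a, an oxidase of protein folding in the endoplasmic reticulum, rose from a mean of 46.7 to 107.0 TPM (log2 change 1.19, adjusted p = 1.7e-05), Tfrc, the transferrin receptor, from 216.8 to 417.5 TPM (0.95, adjusted p = 3.6e-05), and Car12, a carbonic anhydrase, from 20.4 to 31.7 TPM (0.61, adjusted p = 0.00082). Ndrg1, a stress-induced gene, fell from 48.1 to 18.9 TPM (-1.29, adjusted p = 7.3e-06) and Car9, a carbonic anhydrase of the cell surface, from 5.44 to 3.14 TPM (-0.64, adjusted p = 0.018). The call of Car9 was lost without DMSO replicate 6 or LPS replicate 7, without a filter and with median-ratio scaling, and that of Car12 without DMSO replicate 7. With skatole, 2 were called higher and 4 lower against DMSO, beside 11.4% and 25.3% of all genes. Against LPS, limma called 0 of 14, beside 9.49% of all genes. Without the fold change limits, Bhlhe40 (-0.50, adjusted p = 0.014), P4ha1 (-0.37, adjusted p = 0.012) and Kdm3a (-0.38, adjusted p = 0.028) were lower, named after their values were seen, and 0 were higher, beside 19.7% and 8.89% of all genes. On recovered values the limma adjusted p was 0.06 for Bhlhe40, 0.018 for P4ha1 and 0.049 for Kdm3a. At an unadjusted p below 0.05 the counts were also 3 lower and 0 higher, beside 27.8% and 12.7% of all genes. With median-ratio scaling 1 was lower and 0 higher by adjusted p alone, beside 1676 lower and 1836 higher of all 12819 genes.

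**Figure D3:**
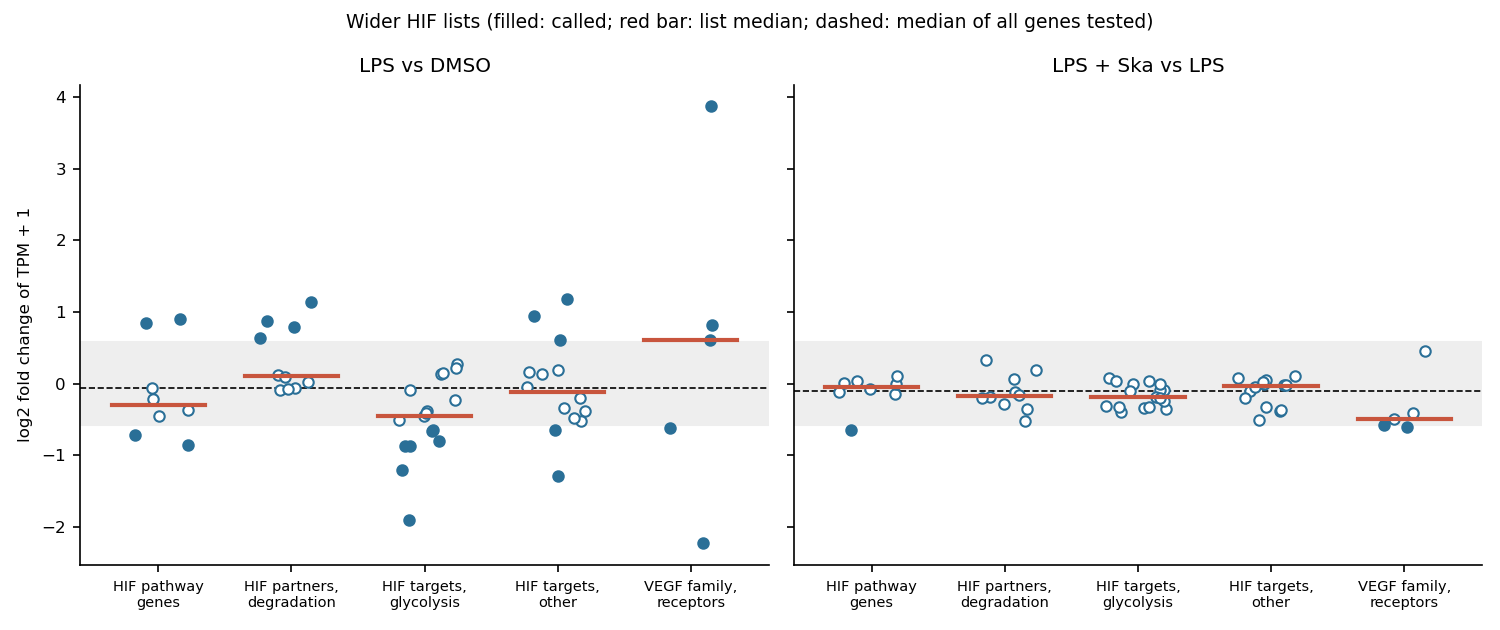
Log2 fold change of TPM + 1 of each tested gene in the pathway and in 4 wider lists, for LPS compared with DMSO and LPS + Ska compared with LPS. Filled points were called, red bars are list medians, dashed lines the median of all genes tested and grey bands the changes inside the fold change limits. With LPS the 17 glycolytic genes have a median of -0.46 and the called ones all lie below 0, and with skatole the calls are Ankrd37, Vegfb and Vegfc.

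Among the relatives and receptors of Vegfa, 5 of 9 listed genes were tested and all 5 were called with LPS, 3 higher and 2 lower, beside 32.7% of all genes. With median-ratio scaling 4 were called, beside 4120 of all 12819 genes, as the change of Vegfb (-0.54) was then inside the fold change limits. Vegfc, a growth factor of lymphatic vessels, had 0.520, 0.841 and 0.706 TPM in DMSO, 23.7, 22.4 and 25.0 TPM in LPS, and 15.6, 17.5 and 13.8 TPM in LPS + Ska. With a DMSO mean of 0.689 TPM, Vegfc passed the filter only through its LPS-treated columns, so the filter favoured its calls above DMSO. Its log2 change was 3.87 in LPS compared with DMSO (adjusted p = 2.6e-08) and -0.58 when skatole was added to LPS (adjusted p = 0.0064). Vegfb, a further ligand of the VEGF receptor FLT1, had 78.1, 77.9 and 72.5 TPM in DMSO, 49.1, 48.3 and 49.8 TPM in LPS, and 31.8, 30.1 and 33.4 TPM in LPS + Ska. Its 3 groups did not overlap, and its log2 change was -0.62 with LPS (adjusted p = 2.6e-05) and -0.61 with skatole added to LPS (adjusted p = 0.00022). Flt1, the receptor that binds both Vegfa and Vegfb products, had means of 4.07 TPM in DMSO and 7.95 TPM in LPS (0.82, adjusted p = 5e-04). Of the coreceptors, Nrp1 fell from 9.92 to 1.28 TPM (-2.23, adjusted p = 8.3e-06) and Nrp2 rose from 97.1 to 148.6 TPM (0.62, adjusted p = 0.00054, not called without DMSO replicate 5 or 6). In LPS + Ska compared with LPS, 9.49% of all genes were called, and 6.14% of all genes were called lower. Of this list, Vegfb and Vegfc were the 2 of 5 tested genes called, both lower. With recovered values 1 of them was called, as the fold change of Vegfc was then inside the limits, and with median-ratio scaling 0 were. The call of Vegfc was also lost without LPS replicate 7 or LPS + Ska replicate 7 and, at -0.57, when ribosomal protein genes and those of the mitochondrial genome were taken out of the TPM, and that of Vegfb without LPS + Ska replicate 6. Against DMSO, LPS + Ska had 1 of the 5 called higher and 2 lower, beside 11.4% and 25.3% of all genes. Between LPS + Ska and LPS, without the fold change limits, 4 were lower and 0 higher, beside 19.7% and 8.89% of all genes. Besides Vegfb and Vegfc these were Nrp2 (-0.50, limma adjusted p = 0.0062) and Flt1 (-0.41, adjusted p = 0.044), named here after their values were seen. On recovered values the limma adjusted p was 0.021 for Nrp2 and 0.1 for Flt1.

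Nos2, the inducible nitric oxide synthase and a HIF1-linked gene of M1 macrophages, was listed at 0 in all DMSO columns. It had 37.4, 36.1 and 38.8 TPM in LPS and 28.5, 32.1 and 25.0 TPM in LPS + Ska. The columns of LPS and LPS + Ska did not overlap, and the log2 change between them was -0.39 (SE 0.10, adjusted p = 0.020, and 0.075 with recovered values), inside the fold change limits. Arg1, the arginase of M2 macrophages, had a highest column of 1.09 TPM (DMSO replicate 6) and was not tested.

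The DMSO columns differed among themselves in HIF target genes. DMSO replicate 6 was the highest of the 3 in 13 of 17 glycolytic targets (76.5%), in 10 of 14 other targets (71.4%) and in 5 of 8 pathway genes (62.5%), beside 28.7% of all genes tested. In the median gene it stood above the mean of the other DMSO columns by 0.075, 0.16 and 0.18 on the log2 scale in these lists, and over all genes this difference was -0.0049. Bnip3 and Ankrd37 showed the widest gaps among the pathway genes. Without DMSO replicate 6, the log2 change from DMSO to LPS was -0.18 for Bnip3 (adjusted p = 0.094), -0.27 for Ankrd37 (adjusted p = 0.21), -1.74 for Aldoc (adjusted p = 3.1e-05) and -1.17 for Ndrg1 (adjusted p = 9e-06). Without DMSO replicate 7, in contrast, Ankrd37 changed by -0.59 with LPS (adjusted p = 0.032), which passed both limits. Leaving out DMSO replicate 6 left 4 of 8 pathway genes and 7 of 17 glycolytic genes called in LPS compared with DMSO. This stands beside 4161 of all 12819 genes called in that setting, 2510 of them lower. What set this column apart was not tested.

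**Figure D4:**
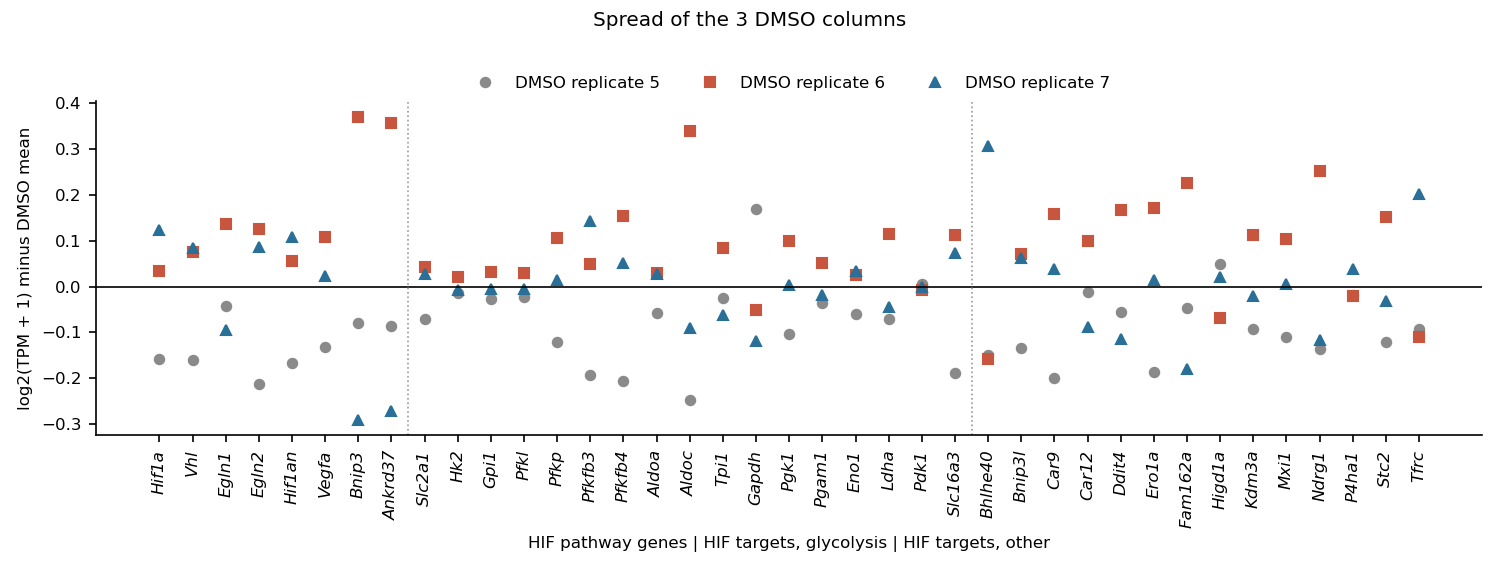
Log2(TPM + 1) of each DMSO column minus the mean of the 3 DMSO columns, for the tested pathway genes, glycolytic targets and other targets (dotted lines separate the lists). DMSO replicate 6 (red squares) is the highest column in 5 of 8, 13 of 17 and 10 of 14 genes.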

How the data were processed

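The authors sequenced NEBNext Ultra RNA libraries of RAW264.7 macrophages in 3 groups (DMSO, LPS, LPS + Ska) of 3 samples. Gene expression was deposited as TPM for 55401 Ensembl identifiers, of which 55141 matched a symbol. The submitters' processing notes name fastp 0.20.1, HISAT2 2.2.1, StringTie 2.0 and the build mm10, and the annotation is not given in the sources used here. TPM keep no depth, so no interval for counting error was possible.

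The 10 genes and the further lists were chosen with earlier results of these data known. All pathway genes were named, as were Arnt, Nos2 and Arg1. Of each further list, up to 5 genes per direction called in LPS + Ska compared with LPS were named, and then up to 3 per direction called in LPS compared with DMSO. Ero1a was matched through a RefSeq synonym, and of 2 identifiers of Aldoa the one with the higher mean was used. A linear model with an intensity trend (limma 3.58.1, R 4.3.3) was fitted to log2(TPM + 1) of all 9 columns for the 12819 genes that averaged 1 TPM or more. The fit was tested on simulated data. Calls needed a fold change of more than 1.5 or less than 0.67 and an adjusted p (Benjamini-Hochberg) under 0.05.

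For tied columns, an alternative used 2 recovered values, which lie on either side of replicate 5 at 0.5 of its distance to replicate 6. The other alternatives left out each column in turn, blocked on the replicate number, dropped the intensity trend, fitted only the compared groups, called by adjusted p alone, set the pseudocount to 0.1, removed the filter or set it to 5 TPM, applied median-ratio scaling, or rescaled TPM without mitochondrial-genome and ribosomal protein genes. Counts of the further lists without DMSO replicate 6, with recovered values and with median-ratio scaling were added after the data had been seen. Positions came from GENCODE vM21 (GRCm38, the build that mm10 names) and promoter windows from RefSeq. Figures were drawn with matplotlib 3.10.9.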

Additional observations from a re-analysis of the deposited data

How the results depend on the processing

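Of 1476 values of named genes under 19 alternatives, 1410 kept their direction and their side of the threshold, 28 lost a call, 12 gained one and 26 changed sign. The alternatives that leave out 1 tied column of LPS or LPS + Ska take away no independent sample, so they do not test dependence on a sample. All sign changes were in changes that had not been called, and the cause was not tested. The count of pathway genes called was 4 or 5 in LPS compared with DMSO and 5 or 6 in LPS + Ska compared with DMSO under every alternative. The 1 call in LPS + Ska compared with LPS (Ankrd37) became 0 with no filter, with median-ratio scaling and with recovered values, and between 0 and 1 with single columns left out. Called by adjusted p alone, 7734, 3663 and 8116 genes passed in LPS compared with DMSO, LPS + Ska compared with LPS and LPS + Ska compared with DMSO, against 4189, 1216 and 4700. Median-ratio scaling moved the share of higher calls from 38.9% to 47.8%, from 35.3% to 52.0% and from 31.0% to 48.4%, and the median of all genes in LPS + Ska compared with DMSO from -0.18 to -0.013. With median-ratio scaling Vhl was 0.022 in LPS and 0.0021 in LPS + Ska compared with DMSO, and Arnt 0.020 in LPS compared with DMSO. The other sign changes were in LPS + Ska compared with LPS. There, median-ratio scaling gave 0.091 for Egln2, 0.0090 for Hif1an, 0.088 for Aldoc, 0.045 for Ero1a, 0.082 for Ndrg1 and 0.063 for Car9. Without mitochondrial-genome and ribosomal protein genes, Egln2 was 0.013, Aldoc 0.012, Ndrg1 0.0047 and Car9 0.0019, and Egln2 was 0.0022 with recovered values. With single columns left out, the log2 change ran from -0.11 to 0.11 for Egln2, from -0.030 to 0.064 for Bnip3, from -0.12 to 0.11 for Aldoc, from -0.14 to 0.042 for Ero1a, from -0.20 to 0.012 for Car12, from -0.039 to 0.014 for Ndrg1, from -0.17 to 0.16 for Car9 and from -0.24 to 0.0073 for Arnt. Of the list counts added later, those of the VEGF family in LPS + Ska compared with LPS went from 2 to 1 with recovered values and to 0 with median-ratio scaling, and the other totals stayed within 1.5 times. By direction, calls lower in LPS compared with DMSO went from 2 to 1 for other HIF target genes, without DMSO replicate 6 and with median-ratio scaling, and from 2 to 1 for the VEGF family with median-ratio scaling. With a replicate block, 4, 1 and 5 pathway genes and 4235, 1198 and 4729 genes were called in the 3 comparisons, and the change of Ankrd37 in LPS + Ska compared with LPS kept its value of -0.65 (adjusted p = 0.026). Deviations of same-numbered columns correlated at 0.38, 0.15 and 0.13 between LPS and LPS + Ska, whose columns are tied, and between -0.032 and 0.080 otherwise, so same-numbered samples were not treated as pairs. The unknown depth and the tied columns limit how well small changes can be seen.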
